A study of Mus musculus with 9 samples.

Results

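The genes described here are the 5 NF-kB subunits Rel, Rela, Relb, Nfkb1 and Nfkb2, the inhibitors Nfkbia, Nfkbib, Nfkbie and Tnfaip3, and the kinase gene Ikbkb. They were chosen by symbol, as a set of known function, and all 10 were found among the 34092 gene rows of the count table. All 10 also passed the filter on low counts that left 14424 genes for testing. The cells were resting regulatory T cells, sorted ex vivo from primary mouse T cells, and the labels give neither the age of the mice nor the organ. Wild-type cells (WT) carried the allele labelled Foxp3gfp, a green fluorescent reporter of the transcription factor Foxp3, and the mutant cells (CNS2KO) the allele labelled Foxp3deltaCNS2-gfp, a reporter allele without CNS2, a conserved noncoding element of the Foxp3 gene. Every sample therefore carried a reporter at Foxp3. Of 6 WT and 3 CNS2KO samples in the labels, the libraries numbered WT 398, 402, 405, 1032 and 1037 and CNS2KO 399 and 408 were compared, since the columns numbered 407 could not be given a genotype. Nothing in the labels ties samples to animals. The tests therefore measure variation among these libraries, which may be technical.

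NF-kB proteins bind DNA as dimers. Rel (c-Rel), Rela (p65) and Relb carry activation domains, while Nfkb1 and Nfkb2 encode precursors that are processed to the DNA-binding subunits p50 and p52. Inhibitors of the I-kappa-B family, which include the products of Nfkbia, Nfkbib and Nfkbie, hold the dimers in the cytoplasm until the I-kappa-B kinase, of which Ikbkb encodes the beta subunit, marks them for degradation. Tnfaip3 encodes A20, a ubiquitin-editing enzyme that damps signalling upstream of that kinase, and several of these genes are themselves induced by NF-kB. In T cells the pathway is switched on by the antigen receptor with CD28 and by receptors of the tumour necrosis factor family, and c-Rel is known for its part in turning on Foxp3 as regulatory T cells form.

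Promoter sequence shows which members carry letters of the NF-kB binding site close to their start. Windows of 250 bases before the gene start (RefSeq, GRCm38.p6) were found for 7 of the 10 members, in 10 windows, and Relb, Nfkb1 and Ikbkb had no entry. The kappa-B consensus motif of 10 bases, searched on both strands, had a match in 7 of the 10 windows and in 5 of the 7 members. Of all 32851 windows of that length, 7.25% held a match. The members with a match were Rel, Nfkb2, Nfkbia, Nfkbie and Tnfaip3, and those without were Rela and Nfkbib. The stretches from base 130 to base 2 before the start are given 5′ to 3′ on the gene's strand for the 4 members on which the results below turn most, with matches in capitals.

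Rel (chr11:23770971-23771099, minus strand): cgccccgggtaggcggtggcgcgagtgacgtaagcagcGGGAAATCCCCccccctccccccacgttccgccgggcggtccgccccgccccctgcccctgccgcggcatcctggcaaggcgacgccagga

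Nfkbia (chr12:55492649-55492777, minus strand): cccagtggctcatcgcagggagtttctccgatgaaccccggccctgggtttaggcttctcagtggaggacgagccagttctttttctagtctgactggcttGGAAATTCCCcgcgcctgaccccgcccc

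Nfkbie (chr17:45555570-45555698, plus strand): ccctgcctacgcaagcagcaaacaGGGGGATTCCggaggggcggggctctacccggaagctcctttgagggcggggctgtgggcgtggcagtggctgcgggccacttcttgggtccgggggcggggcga

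Tnfaip3 (chr10:19015412-19015540, minus strand): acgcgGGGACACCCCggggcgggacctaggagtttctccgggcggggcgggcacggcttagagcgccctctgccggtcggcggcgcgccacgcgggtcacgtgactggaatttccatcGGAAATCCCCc

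In Rel the 2 matches overlap and begin 92 and 91 bases before the start. The match in Nfkbia begins 29 bases before it and that in Nfkbie 106 bases before it. Tnfaip3 has matches that begin 125 and 12 bases before the start, and its other listed start had none. Nfkb2 had matches at each of its 3 listed starts, with GGGAATTCCC, GGAATTCCCC and GGGGCTTTCC in the first window. These matches describe letters only, since binding was not measured, and the values below show that genes with a match did not all vary in the same way from library to library.

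Reads on genes numbered 16557424 to 21836578 per library, which were 22.0 to 23.7% of all reads in the columns. The libraries held reads for 14639 to 19206 genes. A gene with 3 reads stood at 0.142 to 0.182 CPM (reads scaled to library size), far below the lowest member value. Values in CPM were scaled between libraries by TMM, a method that corrects for differences in composition. T cell and regulatory T cell markers were high throughout: Il2ra, a chain of the receptor for IL-2, stood between 1563 and 2193 CPM, and Cd3g, a component of the T cell receptor complex, between 758 and 1352 CPM.

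In these resting cells the pathway was unevenly expressed, with the inhibitor Nfkbia and the kinase Ikbkb far above Nfkb2 and Relb. Levels of different genes are compared here as CPM per kilobase of coding sequence, in the 5 WT libraries. Nfkbia was highest at 294 ± 45.7 (SD, n = 5), followed by Ikbkb at 156 ± 23.7 and Rela at 87.4 ± 8.31 CPM per kilobase. The WT ranges of these 3 did not overlap with each other or with that of the next gene. Tnfaip3 at 48.4 ± 11.4, Nfkbie at 43.0 ± 7.35 and Nfkb1 at 38.7 ± 7.53 formed a middle tier whose ranges overlapped. Rel stood at 19.4 ± 7.25 and Nfkbib at 18.5 ± 5.03, which overlapped with each other, and the highest Rel library (28.2) lay above the lowest Nfkb1 library (26.1). Relb at 6.33 ± 2.65 and Nfkb2 at 5.82 ± 1.55 CPM per kilobase were lowest, and all their WT values lay below those of Nfkbib. Per kilobase of whole transcript the first 3 kept their places, but Rel, with a transcript of 7466 bases for 1764 of coding sequence, moved from place 7 to place 10 at 4.57 ± 1.71 CPM per kilobase.

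**Figure D1:**
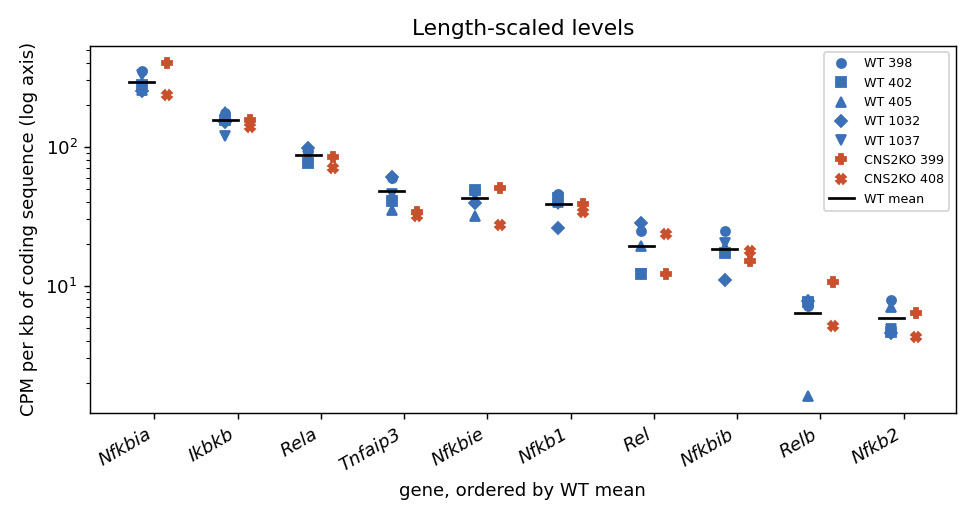
CPM per kilobase of coding sequence (log axis) for each gene, ordered by the WT mean; each point is a library, blue for WT and orange for CNS2KO, and the black line is the WT mean of 5 libraries. Nfkbia leads at a WT mean of 294, and Relb and Nfkb2 close the order at 6.33 and 5.82.

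How closely WT libraries agreed differed among the members. The coefficient of variation of CPM over 5 WT libraries was lowest for Rela at 9.51% and highest for Relb at 41.8% and Rel at 37.4%. The place of Relb rested on WT 405: over the other 4 WT libraries its coefficient was 3.45%, while that of Rel was 32.95 to 43.2% with any 1 WT library left out. Ikbkb (15.1%), Nfkbia (15.6%), Nfkbie (17.1%) and Nfkb1 (19.5%) lay between. The median over the 10 members was 21.5%, beside 20.6% over the 8357 genes tested above 10 CPM.

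The question put to these libraries was whether any of these transcripts differed when CNS2 was absent. In bulk samples such as these, fewer cells of a type and less RNA per cell cannot be told apart. In edgeR's quasi-likelihood test with Benjamini-Hochberg adjustment over all genes, 0 of 10 members passed at an FDR of 0.05, as did 0% of the genes tested. At an unadjusted p under 0.05 there was 1 member, Tnfaip3, beside 2.5% of the genes tested. Without CNS2KO 408 that share was 10.6%, with 0 members among them. Fold changes were negative for 8 members and positive for 2, and their median was -0.13 on the log2 scale, beside -0.03 over all genes tested. Tnfaip3 was also the 1 member lower in CNS2KO 399 and in CNS2KO 408 than in any WT library, which held for 3% of the genes tested. In 0 members did both lie above every WT library, which held for 3.76% of the genes tested. With 2 CNS2KO libraries, changes could be missed, also large ones. When 5 WT and 2 CNS2KO libraries were simulated, 23 of 100 genes with a 2-fold change were called. So were 70 of 100 genes with a 4-fold change. The changed genes, 200 in all, were drawn from genes with a mean above 1 CPM. These counts therefore do not give the power for the 10 members.

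**Figure D2:**
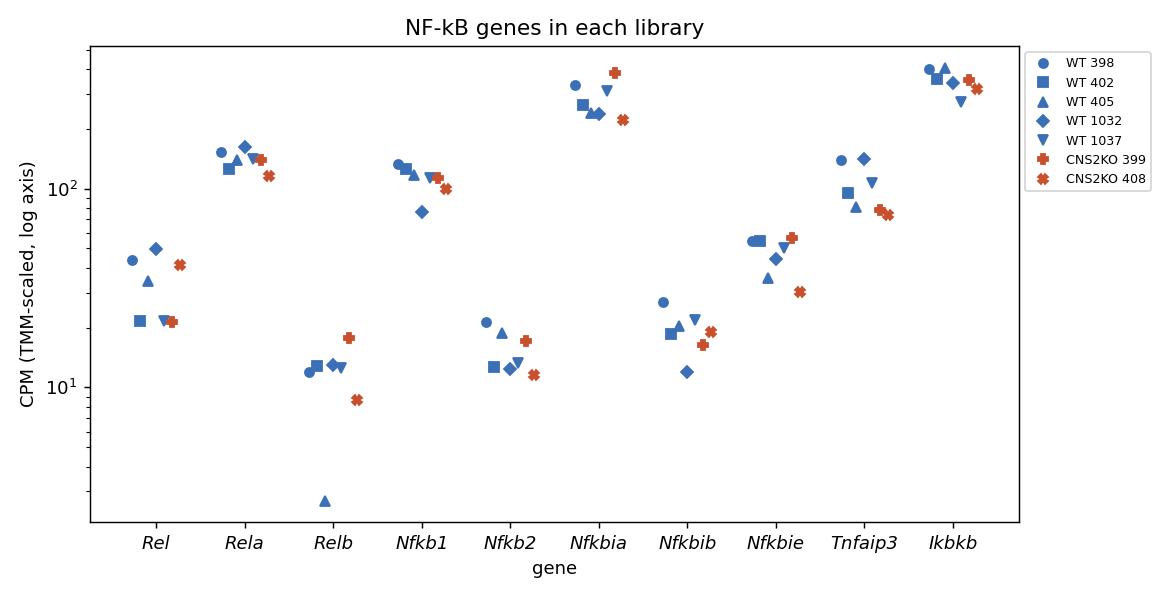
TMM-scaled CPM (log axis) of the 10 genes, with a point for each of 5 WT (blue) and 2 CNS2KO (orange) libraries. The CNS2KO points of Tnfaip3, at 78.4 and 73.7 CPM, lie under all WT points, while those of Nfkbia lie on either side of the WT points.

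Rela, an activating subunit, varied little among the WT libraries. It stood at 153, 126, 139, 161 and 141 CPM in WT 398, 402, 405, 1032 and 1037, and at 140 and 116 CPM in CNS2KO 399 and 408. CNS2KO 399 lay inside the WT range and CNS2KO 408 below it. Rela had a log2 fold change of -0.17 (SE 0.18, 95% interval -0.56 to 0.22), which was -0.30 without CNS2KO 399 and -0.05 without CNS2KO 408.

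Rel, in contrast, varied widely among libraries of the same genotype. It stood at 43.9 CPM in WT 398, 34.2 in WT 405 and 49.7 in WT 1032, and at 21.5 in WT 402 and 21.6 in WT 1037. CNS2KO 399 (21.4 CPM) stood with the low libraries and CNS2KO 408 (41.3 CPM) with the high ones. The highest WT library exceeded the lowest by 2.30-fold, more than the difference between the genotype means of 34.2 ± 12.8 (SD, n = 5) and 31.4 ± 14.1 CPM (SD, n = 2). Its difference, CNS2KO minus WT, was -0.12 on the log2 scale (SE 0.39, 95% interval -0.97 to 0.72). It was 0.28 without CNS2KO 399, 0.05 without WT 1032 and -0.69 without CNS2KO 408.

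Relb, the activating subunit of the alternative pathway, was low, from 53 to 376 reads per library. It stood at 12.0, 12.8, 13.0 and 12.5 CPM in WT 398, 402, 1032 and 1037, but at 2.70 CPM in WT 405. CNS2KO 399 was the highest library at 17.8 CPM, while CNS2KO 408 had 8.61 CPM, below the other 4 WT libraries. Relb had a log2 fold change of 0.32 (SE 0.55, 95% interval -0.88 to 1.52). Without CNS2KO 399 it was -0.29, without WT 405 it was 0.07 and without CNS2KO 408 it was 0.74.

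Of the precursor genes, Nfkb1 stood at 133, 125, 117, 75.9 and 113 CPM in WT 398, 402, 405, 1032 and 1037, with both CNS2KO libraries (113 and 99.5 CPM) inside the WT range. Nfkb1 had a log2 fold change of -0.08 (SE 0.22, 95% interval -0.57 to 0.41), which was -0.20 without WT 1032 and 0.002 without CNS2KO 408. Nfkb2, the p100 precursor of the alternative pathway, stood at 21.4, 12.6, 18.9, 12.3 and 13.3 CPM in the same WT libraries. CNS2KO 399 had 17.2 and CNS2KO 408 had 11.6 CPM of Nfkb2, the latter just below the WT range. Nfkb2 differed by -0.13 on the log2 scale (SE 0.35, 95% interval -0.90 to 0.64). It was 0.12 without CNS2KO 408, 0.01 without WT 398 and -0.44 without CNS2KO 399.

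Nfkbia and Nfkbie, which encode I-kappa-B alpha and epsilon, shared a pattern in which the CNS2KO libraries lay at opposite ends. Nfkbia stood at 332, 264, 240, 237 and 311 CPM in WT 398, 402, 405, 1032 and 1037. CNS2KO 399 reached 379 CPM, above every WT library, and CNS2KO 408 had 222 CPM, below every WT library. Nfkbie stood at 54.8, 54.5, 35.4, 44.1 and 50.4 CPM in the same WT libraries, with 56.5 CPM for CNS2KO 399 and 30.3 CPM for CNS2KO 408. CNS2KO minus WT, the log2 fold change was 0.12 for Nfkbia (SE 0.22, 95% interval -0.37 to 0.61) and -0.14 for Nfkbie (SE 0.28, 95% interval -0.76 to 0.48). Without CNS2KO 399 Nfkbia stood at -0.32 and without CNS2KO 408 at 0.45, and Nfkbie at -0.66 and 0.23.

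Nfkbib, for I-kappa-B beta, did not share that pattern. It stood at 26.8, 18.6, 20.4, 11.9 and 21.9 CPM in WT 398, 402, 405, 1032 and 1037 and at 16.3 and 19.0 CPM in CNS2KO 399 and 408, both inside the WT range. Nfkbib had a log2 fold change of -0.17 (SE 0.33, 95% interval -0.90 to 0.56), which was -0.31 without WT 1032 and -0.04 without WT 398. In the GENCODE M21 annotation 3 members overlap genes on the opposite strand: Nfkbib overlaps Sirt2 and Ccer2, Nfkb2 overlaps Psd and a noncoding gene, and Ikbkb overlaps an antisense gene. Where counting ignored strand (not given in the sources used here), reads of these genes may be mixed, also in the levels given above. Nfkb1 overlaps Gm43430 on the same strand, where reads may be mixed however strand was treated.

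With all 7 libraries Tnfaip3 had the largest fold change of the set, and it was negative. Relb (0.74) and Rel (-0.69) had larger ones without CNS2KO 408, Relb (0.53) also without both WT 1032 and WT 1037 or with a term for them, and Nfkbie's was larger (-0.66) without CNS2KO 399. It stood at 139, 95.3, 81.2, 141 and 106 CPM in WT 398, 402, 405, 1032 and 1037. The CNS2KO libraries had 78.4 (399) and 73.7 CPM (408), close to each other and just below the lowest WT library, WT 405. Mean Tnfaip3 was 112.5 ± 26.5 CPM over the 5 WT libraries and 76.1 ± 3.28 CPM over the 2 CNS2KO libraries (SD). It had a log2 fold change of -0.56 (SE 0.24, 95% interval -1.10 to -0.03), with an unadjusted p of 0.040 that ranked 271 of 14424 and an adjusted p of 1 by edgeR's quasi-likelihood test. By the exact permutation test of log2 CPM (two-sided, 21 assignments, smallest reachable p 0.048) the p was 0.095. With each library left out in turn the log2 fold change stayed between -0.66 and -0.47, and its smallest adjusted p by edgeR over these was 0.609, without CNS2KO 408. The unadjusted p rose above 0.05 without WT 398, without WT 1032, without CNS2KO 399 and without CNS2KO 408. It also did so without both WT 1032 and WT 1037, or with a term for them, at a log2 fold change of -0.47 in each. Since both are WT, these fits draw the genotype difference from the same libraries and are not separate checks.

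Ikbkb, the kinase gene, stood at 400 CPM in WT 398, 355 in WT 402, 406 in WT 405, 341 in WT 1032 and 273 in WT 1037. Both CNS2KO libraries (352 and 317 CPM) lay inside that range, with a log2 fold change of -0.09 (SE 0.18, 95% interval -0.48 to 0.31). It was -0.17 without WT 1037 and -0.02 without CNS2KO 408.

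**Figure D3:**
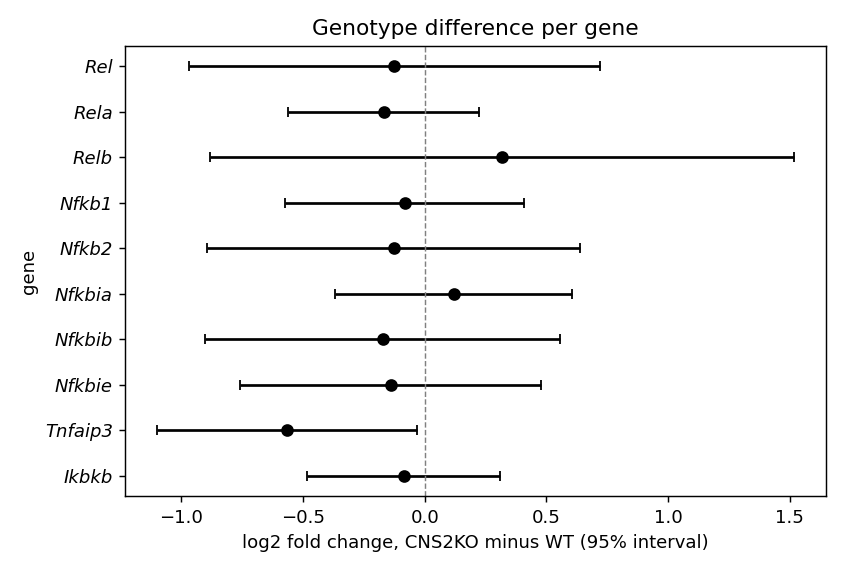
Log2 fold change, CNS2KO minus WT, with its 95% interval from edgeR's quasi-likelihood fit, for the 10 genes. The interval of Tnfaip3, from -1.10 to -0.03, is the 1 interval that does not reach 0, and its adjusted p is 1.

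Seen by library, the CNS2KO libraries lay apart in some members, such as Nfkbia, and close together in others, such as Tnfaip3. CNS2KO 408 lay below the WT mean in 9 of 10 members, Rel being the exception, and was the lowest of the 7 libraries in 5 of them (Rela, Nfkb2, Nfkbia, Nfkbie and Tnfaip3). Over all genes tested it was the lowest library in 7.38%. CNS2KO 399 was the highest library for 3 members (Relb, Nfkbia and Nfkbie) and lowest for Rel. Over all genes tested CNS2KO 399 was the highest in 18.9%. Both shares include genes with few reads, and CNS2KO 408 had reads for the most genes (19206). The shares are therefore not matched to the level of the members. WT 398 was below the WT mean in 0 of 10 members. The share of all genes tested that lay below the WT mean was not taken for CNS2KO 408 or WT 398. These counts of members therefore have no background. In CNS2KO 408 some deviations were small, at -0.02 in Nfkbib and -0.10 in Relb on the log2 scale. The median deviation of the members from the WT mean was 0.31 in WT 398, 0.02 in CNS2KO 399 and -0.23 in CNS2KO 408 on the log2 scale, with the other WT libraries between -0.07 and 0.01.

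**Figure D4:**
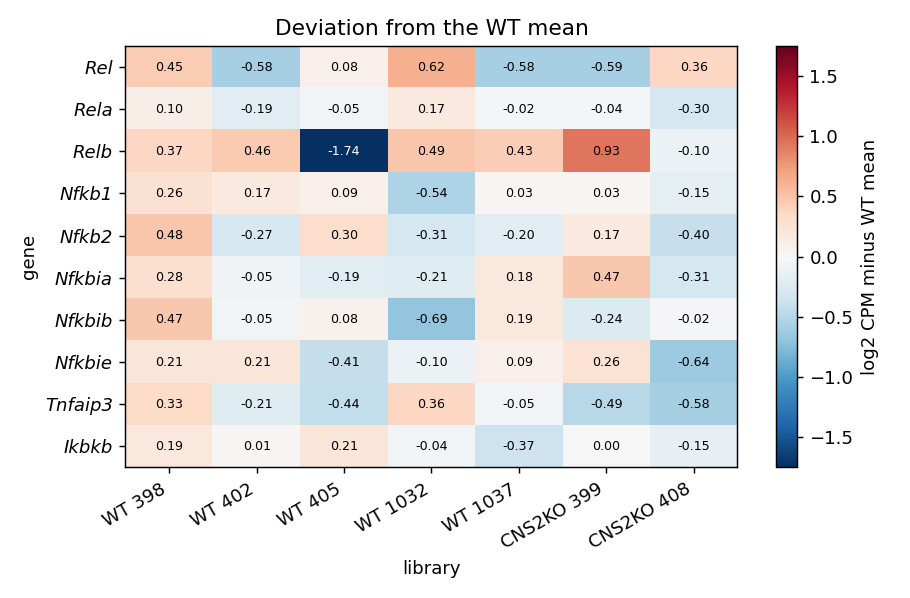
Log2 CPM minus the WT mean for each gene (rows) and library (columns), red above and blue below the WT mean. The column of CNS2KO 408 is below the WT mean in 9 of 10 genes, from -0.02 in Nfkbib to -0.64 in Nfkbie. The darkest cell is Relb in WT 405 at -1.74.

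Relations between the members were measured over the 7 libraries for the 10 pairs of Nfkbia, Nfkbie, Tnfaip3, Nfkb2 and Relb, which are known as NF-kB targets. Nfkbia and Nfkbie were the closest pair, with Pearson's r of 0.81 (exact permutation p = 0.027, adjusted p = 0.27) and Spearman's rho of 0.93 (exact permutation p = 0.007, adjusted p = 0.070). Without CNS2KO 399 and WT 398, the libraries farthest from the median of Nfkbia, r was 0.76. Nfkbia and Tnfaip3 had an r of 0.11 (exact permutation p = 0.798, adjusted p = 0.798) and a rho of 0.11 (exact permutation p = 0.840, adjusted p = 0.840). None of the 10 pairs passed after adjustment by r or by rho, and r ranged from -0.27 (Nfkb2 and Relb) to 0.81. For Nfkb2 and Relb r was 0.88 without WT 398 and WT 405, so the sign rested on those libraries. The sign also changed for Nfkbie and Tnfaip3, from 0.44 to -0.63 without WT 405 and CNS2KO 408. For Tnfaip3 and Nfkb2 it changed from 0.12 to -0.23 without WT 398 and WT 1032. The labels divide the samples by genotype and by 3-digit or 4-digit numbers, and each division has 5 libraries on 1 side and 2 on the other. With no test on so few, r for Nfkbia and Nfkbie was 0.71 over the 5 WT libraries and 0.84 over the 5 libraries with 3-digit numbers. For Nfkb2 and Relb it was -0.50 and -0.17, and both of those sets include WT 398 and WT 405. Groups of 2 libraries give no correlation.

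The genes whose log2 CPM followed Rel most closely over the 7 libraries, of 5009 genes above 32 CPM, were Mtmr4, Ablim1, Tgfbr1, Arhgap9 and Heatr1, each with a Pearson's r of 0.99. Mtmr4, a phosphoinositide phosphatase, stood at 19.1 and 20.4 CPM in WT 402 and 1037 and 19.0 CPM in CNS2KO 399, against 43.9 CPM in CNS2KO 408 and 34.8 to 59.5 CPM in the other WT libraries. For Nfkbia the closest were Emp3 (0.97), Brms1 (0.97), Rpl36 (0.96), Fau (0.96) and Alkbh6 (0.96), of which Rpl36 encodes a ribosomal protein and Fau a ubiquitin-like fusion with a ribosomal protein. These are descriptions over libraries that share depth and handling. Transcript length differed between the sets: 2217 to 7152 bases for the 5 genes like Rel, and 383 to 1388 bases for the 5 like Nfkbia.

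Library values by transcript length were therefore set beside Rel, a comparison chosen after these values were seen. The median log2 deviation from the WT mean of the longest 20% of transcripts (1391 genes of at least 4922 bases), minus that of the shortest 20% (1392 genes of at most 1727 bases), was 0.33 in WT 1032 and 0.27 in WT 398. It was 0.01 in WT 405, -0.27 in WT 402 and -0.35 in WT 1037. CNS2KO 399 had the most negative value, -0.48, and CNS2KO 408 had 0.04. Rel, with its long transcript, was highest in the libraries with the highest values, WT 1032 and WT 398, and lowest in the 3 libraries with negative values. The part of transcript length in the Rel values was not tested. Tnfaip3, with a transcript of 4422 bases, was likewise highest in WT 1032 (0.36 against the WT mean) and WT 398 (0.335). It stood at -0.21 in WT 402, -0.44 in WT 405 and -0.05 in WT 1037, and at -0.49 in CNS2KO 399 and -0.58 in CNS2KO 408. Nfkbia, with a transcript of 1578 bases, stood at 0.28 in WT 398 and -0.21 in WT 1032. It stood at -0.05 in WT 402, -0.19 in WT 405 and 0.18 in WT 1037. In CNS2KO 399 it stood at 0.47 and in CNS2KO 408 at -0.31. The part of transcript length in the Tnfaip3 and Nfkbia values was not tested either. Of the genes above 10 CPM, 84.6% had a transcript length by symbol.

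**Figure D5:**
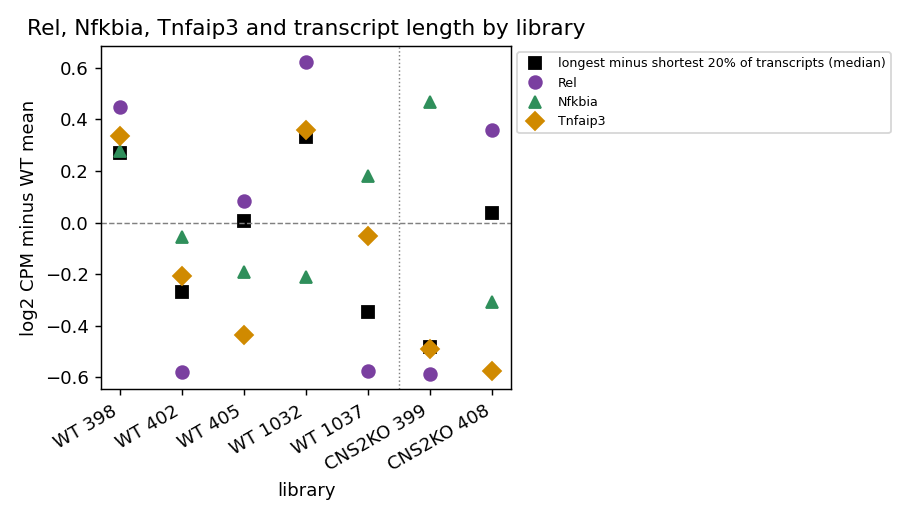
For each library, the log2 deviation from the WT mean of Rel (circles), Nfkbia (triangles) and Tnfaip3 (diamonds), and the median deviation of the longest minus the shortest 20% of transcripts (squares). Rel is near -0.58 in all 3 libraries where the squares are at -0.27 or below. Tnfaip3 is low in both CNS2KO libraries and high in WT 398 and WT 1032, where the squares are highest. In those WT libraries Nfkbia is at 0.28 and -0.21.

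The rest of the pathway was read from lists of known genes. Of 19 upstream kinases and adaptors tested, 0 passed at an FDR of 0.05 in either direction (1 had an unadjusted p under 0.05), and the median log2 fold change was -0.03. The most abundant were Prkcq, the protein kinase C of the T cell receptor synapse, at WT and CNS2KO means of 361 ± 29.4 and 327 ± 50.1 CPM (SD, n = 5 and n = 2), the I-kappa-B kinase relative Ikbke (286 ± 55.7 and 326 ± 40.6 CPM) and the ubiquitin ligase Birc2 (235 ± 50.7 and 287 ± 44.5 CPM). In 1 member, Tbk1, a kinase related to Ikbke, both CNS2KO libraries (168 and 141 CPM) lay above every WT library (105 to 134 CPM), with a log2 fold change of 0.40 (SE 0.18, unadjusted p of 0.045). Such a count of 1 of 19 is near the 3.76% of all genes without overlap in that direction and the 2.5% at that level of p.

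Of 17 other inhibitors tested, 0 passed (0 at an unadjusted p under 0.05), with a median log2 fold change of -0.05 and 0 members whose groups did not overlap. Tax1bp1, an adaptor that works with A20, had a WT mean of 491 ± 39.5 CPM and a CNS2KO mean of 547 ± 1.21 CPM. The deubiquitinase Cyld followed the libraries as Rel did, at 204, 203 and 207 CPM in WT 402, WT 1037 and CNS2KO 399 and 299 to 355 CPM in the others. The ubiquitin ligase Itch had means of 182 ± 43.6 and 167 ± 46.7 CPM.

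Genes known as NF-kB targets were of mixed sign. Of 24 tested, 0 passed at an FDR of 0.05 (3 had an unadjusted p under 0.05), 13 were positive and 11 negative, and the median was 0.05. In 4 of them both CNS2KO libraries lay above every WT library (3.76% of all genes tested), and the share of all genes at an unadjusted p under 0.05 was 2.5%. Fas, a death receptor, stood at 176, 204, 177, 178 and 173 CPM in WT 398, 402, 405, 1032 and 1037 and at 352 and 229 CPM in CNS2KO 399 and 408 (log2 fold change 0.68, SE 0.18, rank 12 of 14424 by p, adjusted p of 1 by edgeR). The activation marker Cd83 had 214 to 303 CPM in WT and 363 and 332 CPM in CNS2KO (0.48, SE 0.18). Bcl2a1b, a survival gene with near-identical copies among which reads may be split, had 21.6 to 32.5 CPM in WT and 38.7 and 37.7 CPM in CNS2KO (0.55, SE 0.25). The fourth, the cyclin gene Ccnd2, had 993 CPM in CNS2KO 408, level with the highest WT library at this rounding, and 1146 CPM in CNS2KO 399. In 1 target, Sod2, the mitochondrial superoxide dismutase, both CNS2KO libraries (39.7 and 55.4 CPM) lay below every WT library (56.6 to 69.5 CPM), as in 3% of all genes tested. Il2ra and the antigen-loading factor Tapbp, the other abundant targets, had log2 fold changes of -0.03 and 0.16.

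Of 13 receptor and receptor-adaptor genes tested, 0 passed (0 at an unadjusted p under 0.05), with a median of -0.08. Cd28, the costimulatory receptor, was the 1 whose groups did not overlap, at 573 to 686 CPM in WT and 465 and 548 CPM in CNS2KO (log2 fold change -0.31, SE 0.15). Over all genes tested, 3% lay below WT in this way. The tumour necrosis factor receptor family members Tnfrsf4 (OX40) and Cd27 stood at 438 ± 43.7 and 436 ± 36.1 CPM in WT and at 490 ± 81.7 and 400 ± 51.7 CPM in CNS2KO.

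Several members are also strongly expressed in other blood cells, and Nfkbia and Tnfaip3 respond quickly to handling. B cell markers were present in all libraries, with summed levels of 1225 to 1526 CPM in WT, 1424 CPM in CNS2KO 399 and 1128 CPM in CNS2KO 408. Ighm (1082 ± 127.8 CPM in WT) made up 75.4 to 85.7% of that sum, and the next was Cd74 (145 ± 11.1 CPM in WT). Without Ighm the list summed to 218 to 234 CPM in WT, 349.7 CPM in CNS2KO 399 and 188 CPM in CNS2KO 408, so that CNS2KO 399 lay above and CNS2KO 408 below every WT library. Among the members, all but Rel and Nfkbib were higher in CNS2KO 399 than in CNS2KO 408, by little in Tnfaip3 (78.4 and 73.7 CPM). The share of all genes tested for which this held was not taken. A link between the members and the B cell markers was not tested. Cd74 stood at 207 and 124 CPM in CNS2KO 399 and 408, Cd79b at 48.1 and 23.2 (21.9 to 30.2 in WT) and H2-Aa at 58.4 and 21.4 (12.8 to 30.1 in WT). Pax5, a defining B cell factor, had 6, 0, 0, 0 and 145 reads in WT 398, 402, 405, 1032 and 1037, 0 in CNS2KO 399 and 2 in CNS2KO 408. Both CNS2KO libraries lay above every WT library in 0 of 10 B cell markers tested and below in 1 (Fcer2a). Myeloid markers summed to 67.3 to 95.5 CPM in WT and 87.6 and 104 CPM in CNS2KO, CD8 and NK cell markers to 77.0 to 93.4 and to 94.98 and 78.7 CPM. Without Cst3 the myeloid list summed to 13.8 to 36.9 CPM in WT. CNS2KO 399 (31.9 CPM) and CNS2KO 408 (32.5 CPM) lay inside that range. Without Cd8b1 the CD8 and NK list summed to 50.7 to 60.5 CPM in WT. There CNS2KO 399 had 74.2 CPM, above every WT library, and CNS2KO 408 had 54.6 CPM. Both CNS2KO libraries exceeded all WT libraries in 3 of 11 myeloid, 1 of 9 CD8 and NK and 1 of 5 red blood cell markers tested, beside 3.76% of all genes tested. The most abundant of each list were Cst3 and Csf1r, Cd8b1 and Nkg7, and Hbb-b1 and Hba-a1, and 0 markers of these lists passed at an FDR of 0.05. Red blood cell markers summed to 6.84 to 27.6 CPM in WT, 156 CPM in CNS2KO 399 and 31.4 CPM in CNS2KO 408. All 5 tested had positive fold changes and 3 had an unadjusted p under 0.05 (2.5% of all genes did), with a median log2 fold change of 2.30, which was 0.68 without CNS2KO 399. At that level of p the B cell list had 0 of 10, the myeloid list 0 of 11, and the CD8 and NK list 1 of 9. Immediate early and stress genes summed to 828 to 1265 CPM in WT and to 1046 and 771 CPM in CNS2KO 399 and 408. The stress genes had 0 of 12 members past the threshold and a median log2 fold change of -0.25, and the most abundant, Btg2 and Zfp36, stood at 330 and 252 CPM in CNS2KO 408, below every WT library. Fos (91.6 CPM), Jun (31.8 CPM) and Dusp1 (25.8 CPM) lay inside the WT range in CNS2KO 408. Without Btg2 the list summed to 417 to 839 CPM in WT. CNS2KO 399 (619 CPM) and CNS2KO 408 (441 CPM) lay inside that range. The part of these cells and of handling in the member values was not tested.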

How the data were processed

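Total RNA of sorted cells was extracted with Trizol, amplified with a SMARTer kit and sequenced as Ion Proton libraries, per the labels. STAR, BWA and edgeR are listed in the submitters' processing notes, without roles, with the build mm9; how reads were counted, and on which annotation: not given in the sources used here. Raw read counts by gene symbol were deposited by the authors, with a table of log2 values whose scaling was not given; the second served only as an alternative. The 2 columns numbered 407 in the table of counts hold equal counts and were left out, as their genotype could not be told. Another table of 1 signed value per gene names no groups and was not used. The 5 summary rows that name no gene were left out of library sizes and tests.

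Counts were fitted in R 4.3.3 with edgeR 4.0.16 (filterByExpr, TMM, quasi-likelihood test, two-sided, Benjamini-Hochberg over all genes, FDR 0.05), CNS2KO against WT, with no covariate. The log2 CPM values used for deviations and relations have a prior count of 2. The standard error of a log2 fold change was taken as its size divided by the square root of F. The test was checked on simulated counts with 200 changed genes, in which 3 unchanged genes were called. Alternatives were RLE and upper-quartile scaling, DESeq2 1.42.0, limma-voom (limma 3.58.1), other filters, a fit without WT 1032 and 1037, a fit with a term for them, an FDR of 0.1 and each library left out; limma on the authors' log2 values was added after seeing the data. The members, lists and rule for named genes were chosen with earlier results of these data known. Named were all members; of each pathway list those past the threshold, the 3 most abundant and up to 3 with the largest fold change among those whose groups do not overlap; of marker lists the 2 most abundant; and the 5 genes closest to Rel and to Nfkbia. Ccnd2 (as a gene without overlap), Sod2, Fcer2a, Pax5, Cd79b and H2-Aa were named after their values were seen. Coding and transcript lengths are those of the GENCODE M21 transcript with the longest coding sequence, in place of the protein table first planned; that annotation is on GRCm38, so lengths may differ from those counted. Protein sequences were not used here.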

Additional observations from a re-analysis of the deposited data

Results flagged for a closer look

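Of 37 groups of 5 WT values checked, 5 had a library that stood apart (about 1 in 20 groups would by chance). Relb stood at 2.70 CPM in WT 405, from 53 reads, with 12.0 CPM in the next library. Prkcq stood at 310 CPM in WT 1037, with 364 CPM next. Ccnd2 stood at 647 CPM in WT 1032, with 908 CPM next. Fas stood at 204 CPM in WT 402, with 178 CPM next. Ighm stood at 1310 CPM in WT 1037, with 1060 CPM next. Relb was the 1 member among them.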

How the results depend on the processing

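No member passed the threshold under any alternative run, and the smallest adjusted p of a member was 0.53, for Nfkbia without CNS2KO 408. The count over all genes was 8 with no filter on low counts, where 21963 genes were tested, and 0 under the other alternatives; the smallest adjusted p among the latter was 0.053, without CNS2KO 408. At an unadjusted p under 0.05 there were 361 genes with edgeR and all 7 libraries, 1676 without CNS2KO 408 and 250 to 427 with another library left out. That count was 985 with no filter, 235 with a term for WT 1032 and 1037, 496 with DESeq2, 614 with limma-voom and 563 with limma on the authors' deposited log2 values. Outside the fits with a library left out, no member changed sign. With a term for WT 1032 and 1037, Nfkb1 moved to -0.23, Nfkb2 to -0.30, Ikbkb to -0.21, Nfkbib to -0.31, Relb to 0.53 and Tnfaip3 to -0.47 on the log2 scale. With 1 library left out, the median log2 fold change of the members ranged from -0.30 (without CNS2KO 399) to -0.01 (without CNS2KO 408). In the same fits Rel ranged from -0.69 to 0.28, Relb from -0.29 to 0.74, Nfkb1 from -0.20 to 0.002, Nfkb2 from -0.44 to 0.12, Nfkbia from -0.32 to 0.45, Nfkbie from -0.66 to 0.23, Rela from -0.30 to -0.05, Nfkbib from -0.31 to -0.04 and Ikbkb from -0.17 to -0.02. Where a CNS2KO library was left out, the remaining one was assumed to vary as WT libraries do. No paired analysis was possible because nothing in the labels pairs libraries across genotypes.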
